A study of Mus musculus with 16 samples.

Results

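The genes described here are 3 receptors of the Notch pathway (Notch1, Notch2 and Notch3), 2 proteins of the nuclear Notch complex (Rbpj and Maml1) and 4 genes known as Notch targets in T cells (Dtx1, Hes1, Nrarp and Ptcra). They were taken by symbol from a table of 13474 genes, and all 9 had a row. The series holds bulk RNA-seq of 16 cultures grown from 5 T-ALL lines (T-cell acute lymphoblastic leukaemia) of the mouse, and each line was profiled as a parental culture and as 1 or more derivatives resistant to a chemotherapy drug. Cytarabine-resistant derivatives came from lines 7298, 2883 and 2869, vincristine-resistant ones from 2883, 2696 and 2869, etoposide-resistant ones from 2883 and 2696, prednisone-resistant ones from 2883 and 2641, and the single methotrexate-resistant one from 2883. The 5 parental cultures are labelled as treated with PBS. Cytarabine is a nucleoside analogue, vincristine blocks microtubules, etoposide poisons topoisomerase II, prednisone is a glucocorticoid and methotrexate blocks folate metabolism.

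Lines 2883, 2696, 2641 and 2869 carry the genotype Mcm2cre/cre, a Cre knock-in that leaves cells with less Mcm2, a subunit of the replication helicase, and line 7298 is SCL/LMO1 transgenic. Every culture, parental ones included, therefore carries the leukaemia-promoting genotype of its line, and no normal thymus is analysed here. All cultures were labelled as thymic and as 1 batch. Each culture is 1 library, the derivatives of a line share 1 parental library, and a p-value rests on the spread between cultures after a term for line. The labels used here state neither drug dose nor the length of selection.

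Levels are in CPM, reads scaled to a common library total, obtained from the deposited FPKM. Depth was 14066191 to 18956066 reads in the 11 resistant libraries and 12142124 to 13498400 reads in the 5 parental ones, so depth separates these groups completely, and its part in any difference was not tested. Mcm2 was at 54.0 to 187 CPM in 14 libraries, all those of Mcm2cre/cre lines, and at 320.5 and 446 CPM in both libraries of line 7298. All 17 listed T-lineage markers had a row and 14 exceeded 10 CPM in every library, with summed levels of 4618 to 9436 CPM in resistant and 5791 to 8628 CPM in parental libraries. The other 3, Cd4, Cd5 and Cd8a, were below 10 CPM in some libraries. Cd4 (median 0.871 CPM) was under 1 CPM in 10 libraries and Cd5 (median 2.23 CPM) in 6. Of 34 markers listed for B, myeloid, erythroid, stromal, thymic epithelial and endothelial cells only 5 had a row. Among them were Pdgfrb at 0.122 to 433 CPM, Pecam1 at 25.5 to 220.4 CPM and the myeloid marker Itgam at 2.74 to 33.1 CPM. In these bulk libraries, fewer cells that express a gene and less RNA per cell cannot be told apart.

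Notch proteins are cell-surface receptors that are cut when a ligand of the Delta or Jagged family on a neighbouring cell binds them. ADAM proteases make the outer cut and gamma-secretase the inner one, and the freed intracellular part enters the nucleus, binds the DNA-binding protein RBPJ and recruits a Mastermind protein to switch on target genes. Notch1 signalling commits progenitors in the thymus to the T lineage, and activating NOTCH1 mutations are among the most frequent lesions in human and mouse T-ALL. Messenger RNA levels do not show how much receptor was cut.

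Compared per kilobase of exon, which allows levels of different genes to be set side by side, Ptcra was the most abundant of the 9 genes by median over the 16 libraries (120.4 CPM per kilobase, range 10.4 to 323), followed by Notch1 (81.2, range 22.6 to 115), Dtx1 (60.6, range 12.1 to 173) and Notch3 (34.6, range 19.7 to 64.0). Hes1 followed at 18.0, Nrarp at 9.15, Maml1 at 8.54, Rbpj at 7.91 and Notch2 at 4.49 CPM per kilobase. The ranges of these neighbours overlap at each step of the order. The length used was the union of all annotated exons of a gene, and whether only exon reads were counted is not known. The order, above all among the last 4 genes, is therefore approximate. The spread of a gene over the libraries differed far more than these medians imply: the highest library held 1.98 times the CPM of the lowest for Rbpj, 2.29 times for Notch2, 2.66 times for Maml1, 3.25 times for Notch3, 5.10 times for Notch1, 14.0 times for Hes1, 14.2 times for Dtx1, 30.9 times for Ptcra and 108 times for Nrarp. The receptors and nuclear proteins were thus the steadier genes, and the 4 targets the more variable ones.

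**Figure D1:**
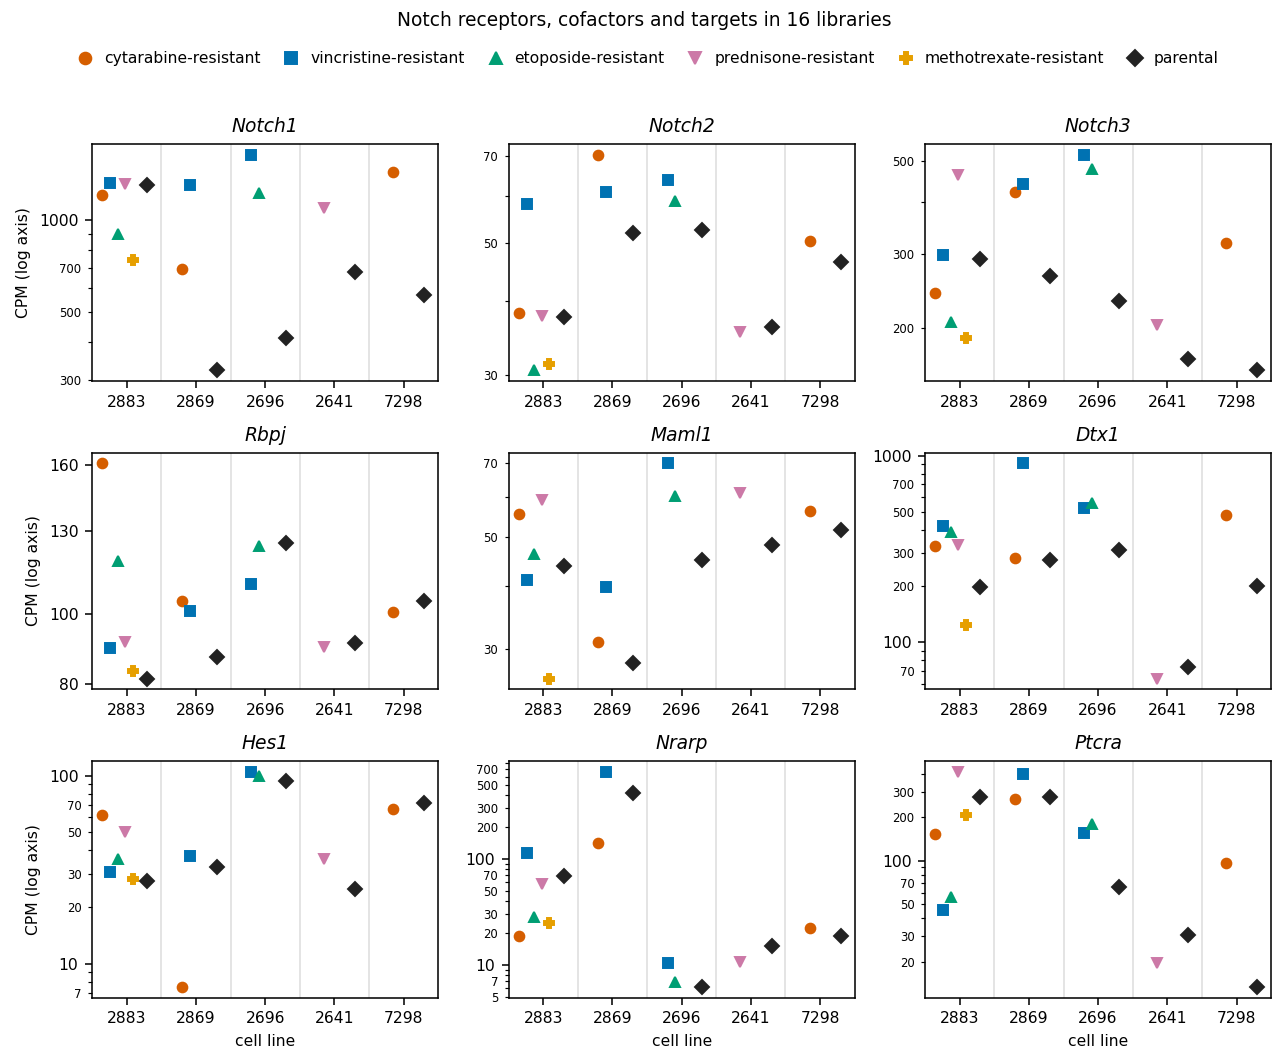
CPM on a log axis for each of the 9 genes in the 16 libraries, grouped by cell line, with resistant derivatives left of the parental library of their line and 1 point per library. The 6 derivatives of lines 2869, 2696, 2641 and 7298 lie above their own parental library for Notch1, whereas in line 2883 the parental library, at 1305 CPM, is as high as the highest derivatives, and Nrarp is highest in the 3 libraries of line 2869.

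Notch1 (chromosome 2, 26457903 to 26516663, minus strand, mm10, as are the coordinates that follow) encodes the main Notch receptor of T-cell progenitors. In line 2696 it was at 1641 CPM in the vincristine-resistant and 1230.1 CPM in the etoposide-resistant culture, against 412 CPM in the parental one. In line 2869 it was at 1308 CPM with vincristine resistance and 689.8 CPM with cytarabine resistance, against 322 CPM in parental cells. The cytarabine-resistant culture of line 7298 held 1444 CPM, against 569 CPM in its parent, and the prednisone-resistant culture of line 2641 held 1098 CPM, against 679 CPM. All 6 derivatives of these 4 lines were thus above their own parent, as was the case for 6.70% of the 13261 genes tested.

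The ratio of derivative to parent in these 6 cultures was 4.06 (95% exact Clopper-Pearson interval on reads, 3.93 to 4.20) with vincristine in line 2869, 3.98 (3.87 to 4.10) with vincristine in line 2696 and 2.99 (2.90 to 3.08) with etoposide in line 2696. It was 2.54 (2.47 to 2.60) with cytarabine in line 7298, 2.14 (2.07 to 2.22) with cytarabine in line 2869 and 1.62 (1.58 to 1.66) with prednisone in line 2641. These intervals cover counting error only, and each ratio compares 1 library with 1 library.

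Line 2883 stood apart. Its parental culture held 1305 CPM of Notch1, against 322 to 679 CPM in the other 4 parental cultures. The gap to the next of these was 0.467 of their range on the log2 scale, below the critical 0.71 of Dixon's test for outliers. The derivatives of line 2883 held 1322 CPM with vincristine, 1315 CPM with prednisone, 1212 CPM with cytarabine, 903 CPM with etoposide and 739 CPM with methotrexate resistance. No derivative of this line exceeded its parent by more than 0.02 on the log2 scale, and the etoposide and methotrexate derivatives were at 0.692 and 0.566 of it. Over all libraries Notch1 averaged 1173 ± 293 CPM in the resistant cultures (SD, n = 11) and 658 ± 388 CPM in the parental ones (SD, n = 5), and the ranges of 689.8 to 1641 and 322 to 1305 CPM overlap. On the log2 scale the spread was 0.40 (SD) among resistant and 0.77 (SD) among parental cultures, a difference that was not tested.

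Across the 5 lines, limma put Notch1 higher in resistant cultures by 0.95 ± 0.29 on the log2(CPM + 1) scale (SE, 11 resistant and 5 parental libraries), with an adjusted p of 0.542 over 13261 genes, so the difference was not called. Higher values came in 8 of 11 derivatives and in 4 of 5 line means, and the exact sign-flip test over the 5 lines gave p = 0.125 (two-sided), where 0.0625 is the smallest value that 5 lines allow. No gene of 13261 (0%) passed an adjusted p of 0.05 in this comparison, while 451 genes were higher and 654 lower at an unadjusted p under 0.05 (3.40% and 4.93%). Of the 9 genes, Notch1 (unadjusted p = 0.00537, limma) and Notch3 (unadjusted p = 0.0275, limma) were among those higher. Without the 6 libraries of line 2883, a setting chosen after its values were seen, the Notch1 difference was 1.39 with an adjusted p of 0.249 (limma). Leaving out only the parental library of line 2883 gives the same 1.39 by construction, because the line term then takes up its derivatives. The difference between line 2883 and the other 4 lines, tested as a term in the model and likewise chosen after the values were seen, was -1.68 ± 0.47 (SE), with an unadjusted p of 0.00398 and an adjusted p of 0.986 (limma); this term called 2 of 13261 genes (0.0151%), neither of them among the 9, and had 214 lower (1.61%) at an unadjusted p under 0.05.

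Few genes shared the Notch1 pattern in the 4 lines. A log2 difference of at least 0.5 in all 6 of their derivatives, a rule set after Notch1 was seen, was met by 8 of the 13261 genes (0.0603%): Notch1, Angptl2, Gm20431, Pmepa1, Slc5a6, Git1, Evpl and Ergic1. Over the 16 libraries the genes whose log2 levels were most like those of Notch1 were Swsap1, Ipo4 and Zc3h7b (Pearson r of 0.83 each), Wdr6 (0.82) and Smarca4 (0.81). Among the other 8 genes, Maml1 (r = 0.58, rank 213 of 13260) and Notch3 (r = 0.52, rank 410) came closest, Dtx1 had an r of 0.34 and Nrarp one of -0.09. These coefficients describe 16 libraries that share 5 lines and are not tests.

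Notch3 (chromosome 17, 32120820 to 32166852, minus strand), a receptor that is itself a known Notch1 target in T-ALL, was at 518 CPM with vincristine and 479 CPM with etoposide resistance in line 2696, against 232 CPM in its parent. In line 2869 it was at 441 CPM with vincristine and 422 CPM with cytarabine resistance, against 267 CPM, in line 7298 at 320.3 CPM with cytarabine resistance, against 159 CPM, and in line 2641 at 204 CPM with prednisone resistance, against 169 CPM. All 6 derivatives of these lines were above their parents, by ratios of 1.20 to 2.23, with 6.70% of all genes sharing that direction. These lines were grouped after the values were seen, and over all lines Notch3 was above the parent in 8 of 11 derivatives. In line 2883 the prednisone derivative was above the parent (463 against 292 CPM) and the vincristine derivative near it (299 CPM), while those resistant to cytarabine (243 CPM), etoposide (207 CPM) and methotrexate (189.8 CPM) were below it. The derivatives in which Notch1 was below the parent, those of line 2883 resistant to methotrexate, etoposide and cytarabine, were also those in which Notch3 was below it.

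The mean for Notch3 was 344 ± 124 CPM in resistant (SD, n = 11) and 224 ± 58.6 CPM in parental cultures (SD, n = 5). Its resistance difference was 0.54 ± 0.22 (log2, SE) with an adjusted p of 0.565 (limma), and the difference between line 2883 and the other 4 lines was -0.92 ± 0.44, with an unadjusted p of 0.0593 (limma). Without line 2883 the Notch3 difference was 0.78, with an adjusted p of 0.249 (limma). The prednisone estimate for Notch3, 0.84 ± 0.34, had an unadjusted p of 0.0334 and an adjusted p of 0.562 (limma). The 2 prednisone derivatives themselves differed from their own parents by less, by 0.27 in line 2641 and 0.66 in line 2883, and the estimate ranged over 0.27 to 1.27 under the alternatives.

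**Figure D2:**
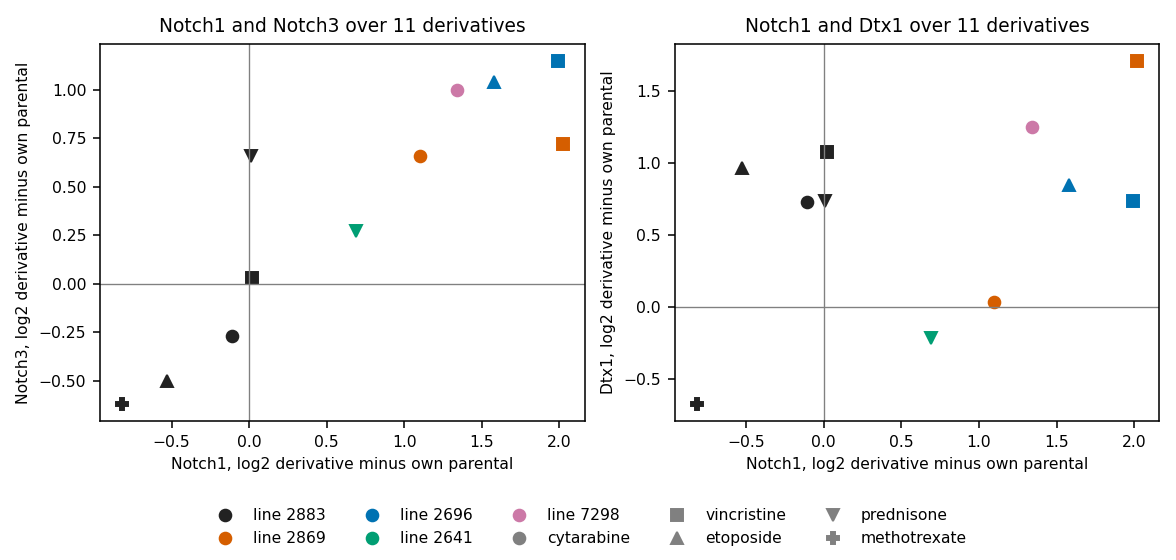
Log2 difference between each of the 11 derivatives and its own parental library, for Notch1 on the x axis and Notch3 (left) or Dtx1 (right) on the y axis, with colour for the line and shape for the drug. The 6 derivatives of the 4 lines other than 2883 lie right of 0 for Notch1 and above 0 for Notch3, and the methotrexate derivative of line 2883 is lowest on all 3 genes, at -0.82 for Notch1, -0.62 for Notch3 and -0.67 for Dtx1. Points of 1 line share a parental library.

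Notch2 (chromosome 3, 98013527 to 98150361, plus strand), a receptor best known in B cells, was the lowest of the 3 receptors and stayed between 30.6 and 70.3 CPM. It averaged 48.7 ± 14.4 CPM in resistant (SD, n = 11) and 44.9 ± 7.77 CPM in parental cultures (SD, n = 5), and the resistance difference of 0.13 ± 0.14 (log2, SE) had an adjusted p of 0.816 (limma). The 3 vincristine derivatives held 58.2, 60.9 and 63.7 CPM, each above its parent at 37.6, 51.9 and 52.6 CPM. The vincristine difference of 0.35 ± 0.18 (log2, SE) had an adjusted p of 0.433 (limma). The levels of Notch2 differed between lines (adjusted p = 0.0275, limma F test over line terms), with 52.6 to 63.7 CPM in line 2696 and 51.9 to 70.3 CPM in line 2869, against 35.5 and 36.2 CPM in line 2641. That call was lost on leaving out any of 6 libraries, the 3 of line 2696, the cytarabine or vincristine derivative of line 2869 or the prednisone derivative of line 2641, with adjusted p-values of up to 0.0612.

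Rbpj (chromosome 5, 53466152 to 53657362, plus strand), the DNA-binding factor of the pathway, was the steadiest of the 9 genes, at 83.4 to 161 CPM in resistant and 81.4 to 125 CPM in parental cultures. Of the 16 libraries, 15 lay between 81.4 and 125 CPM. The exception was the cytarabine derivative of line 2883, at 161 CPM against 81.4 CPM in its parent, a ratio of 1.98 (1.84 to 2.13). The resistance difference was 0.11 ± 0.15 (log2, SE), with an adjusted p of 0.861 (limma), and no line difference was called (adjusted p = 0.646, limma). A processed pseudogene, Rbpj-ps3, had 18.2 to 39.1 CPM in the same libraries, and reads from it and from Rbpj may not have been told apart.

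Maml1 (chromosome 11, 50255634 to 50292311, minus strand), a Mastermind coactivator that bridges the Notch and RBPJ complex to the transcription machinery, averaged 49.6 ± 13.8 CPM in resistant (SD, n = 11) and 43.3 ± 9.04 CPM in parental cultures (SD, n = 5). It was above the parent in 9 of 11 derivatives, in 6 of them beyond counting error, and most with vincristine in line 2696 (69.9 against 45.0 CPM). The exceptions were the methotrexate derivative of line 2883, at 26.2 CPM against 43.8 CPM in its parent, and the vincristine derivative of that line, at 41.1 CPM. The second was within counting error (ratio 0.938, 0.833 to 1.06). Maml1 was the only one of the 9 genes higher in the mean of all 5 lines (0.26, SD 0.20 on the log2 scale), for which the exact sign-flip test gave its smallest possible p of 0.0625. For line 7298 that mean is 1 derivative, within counting error of its parent (ratio 1.09, 0.987 to 1.21). In limma the difference of 0.25 ± 0.17 had an adjusted p of 0.716.

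Dtx1 (chromosome 5, 120680202 to 120711927, minus strand) encodes Deltex1, a ubiquitin ligase that binds the intracellular part of Notch and is a Notch target in thymocytes. It was at 909 CPM with vincristine and 284 CPM with cytarabine resistance in line 2869, against 277 CPM in its parent, and at 559.9 CPM with etoposide and 521 CPM with vincristine resistance in line 2696, against 311 CPM. In line 2883 it was at 418 CPM with vincristine, 389.7 CPM with etoposide, 332 CPM with prednisone and 328 CPM with cytarabine resistance, against 198 CPM in the parent, but at 124 CPM with methotrexate resistance. In line 7298 the cytarabine derivative held 479 CPM, against 201 CPM in its parent, and in line 2641 the prednisone derivative held 63.9 CPM, against 74.1 CPM. Dtx1 was thus higher in 9 of 11 derivatives, among them 4 of the 5 of line 2883 in which Notch1 was not higher by more than 0.02.

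Dtx1 averaged 401 ± 228 CPM in resistant (SD, n = 11) and 212 ± 91.2 CPM in parental cultures (SD, n = 5), with a resistance difference of 0.67 ± 0.32 (log2, SE, adjusted p = 0.604, limma). With vincristine resistance the difference was 1.21 ± 0.29 (unadjusted p = 0.00248, adjusted p = 0.221, limma). Levels differed between lines (adjusted p = 0.0124, limma), lowest in the 2 libraries of line 2641, and this call was lost without the prednisone derivative of that line (adjusted p = 0.133, limma).

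The window around the annotated start of Dtx1 (RefSeq, GRCm38.p6, chr5:120711620-120711919, minus strand) is shown with those of Nrarp and Ptcra because these 3 targets had the widest swings among genes with a RefSeq window, from 250 bases before to 50 after the start. Windows were found for 8 of the 9 genes; Hes1 had none. Capitals mark the core of the RBPJ binding motif, TGGGAA or TTCCCA on the other strand, and the E-box CAGCTG, a sequence bound by E proteins, which reads alike on both strands. Dtx1 has neither in this window, Nrarp (chr2:25180508-25180807, plus strand) has 1 E-box, and Ptcra (chr17:46763663-46763962, minus strand) has 2 RBPJ cores and 3 E-boxes, none overlapping another.
Dtx1: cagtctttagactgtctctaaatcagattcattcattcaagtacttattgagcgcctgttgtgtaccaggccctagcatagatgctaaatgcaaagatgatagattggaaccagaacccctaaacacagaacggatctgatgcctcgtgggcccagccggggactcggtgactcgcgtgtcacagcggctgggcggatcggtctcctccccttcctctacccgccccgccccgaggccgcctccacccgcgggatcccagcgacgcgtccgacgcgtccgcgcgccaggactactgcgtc
Nrarp: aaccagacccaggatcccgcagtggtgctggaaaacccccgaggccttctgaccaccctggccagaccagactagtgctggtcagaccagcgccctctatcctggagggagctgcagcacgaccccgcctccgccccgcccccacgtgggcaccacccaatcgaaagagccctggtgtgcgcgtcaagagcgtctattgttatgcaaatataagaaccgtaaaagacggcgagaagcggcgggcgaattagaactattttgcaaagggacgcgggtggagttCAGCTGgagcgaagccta
Ptcra: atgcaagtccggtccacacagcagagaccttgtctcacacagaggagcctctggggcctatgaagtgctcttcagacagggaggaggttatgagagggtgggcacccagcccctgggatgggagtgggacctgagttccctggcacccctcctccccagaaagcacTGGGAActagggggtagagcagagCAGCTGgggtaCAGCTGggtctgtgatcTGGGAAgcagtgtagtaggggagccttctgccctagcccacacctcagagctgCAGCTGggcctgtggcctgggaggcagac

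In Ptcra the RBPJ cores begin at positions -84 and -32 and the E-boxes at -60, -49 and 22, counted from the first transcribed base as 1. In Nrarp the E-box begins at 33. Of 32851 RefSeq windows of the same length, 25.6% hold at least 1 RBPJ core and 3.79% hold 2 or more, while 16.3% hold at least 1 E-box and 1.90% hold 2 or more. Of the 8 genes with a window, Rbpj was the only other one with an RBPJ core. A match describes letters in the window and does not show binding.

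Nrarp (chromosome 2, 25180758 to 25183339, plus strand) encodes a small ankyrin-repeat protein that is switched on by Notch and dampens it. Its level differed most by line. Line 2869 held 667 CPM with vincristine and 142 CPM with cytarabine resistance, against 423 CPM in its parent, above each of the other 13 libraries. In line 2883 it was at 115 CPM with vincristine, 58.1 CPM with prednisone, 28.4 CPM with etoposide, 25.0 CPM with methotrexate and 18.8 CPM with cytarabine resistance, against 69.4 CPM in the parent. Line 2696 was lowest, with 10.4 CPM with vincristine and 6.93 CPM with etoposide resistance, against 6.18 CPM in its parent. The cytarabine derivative of line 7298 held 22.2 CPM, against 18.8 CPM in its parent, and the prednisone derivative of line 2641 held 10.6 CPM, against 15.2 CPM. Levels differed between lines with an adjusted p of 0.000284 (limma), and this call held under each of 22 alternatives, with adjusted p-values of up to 0.00289.

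Within lines, Nrarp went opposite ways with cytarabine and vincristine resistance where both were profiled. The cytarabine derivatives of lines 2883 and 2869 held 0.271 (0.237 to 0.308) and 0.337 (0.321 to 0.353) of the parental level, and the vincristine derivatives of the same lines 1.65 (1.52 to 1.80) and 1.58 (1.53 to 1.63) times it. Vincristine in line 2696 gave a ratio of 1.69 (1.29 to 2.23) and cytarabine in line 7298 one of 1.18 (1.00 to 1.40). The limma estimates were -1.07 ± 0.37 for cytarabine and 0.83 ± 0.38 for vincristine (log2, SE), with adjusted p-values of 0.498 and 0.392. The difference between the 2 drugs was -1.91 ± 0.43 (unadjusted p = 0.00146, adjusted p = 0.443, limma), the smallest unadjusted p among the 54 pairwise drug differences of the 9 genes; 472 of all genes (3.56%) were lower at an unadjusted p under 0.05 in that pair. Vincristine minus etoposide was also higher for Nrarp (1.28 ± 0.46, unadjusted p = 0.0204, limma), as for 4.18% of all genes. None of the 54 was called, and over all genes 1 of 13261 (0.00754%) was called in vincristine minus etoposide and 0 (0%) in the other 5 pairs. With 1 library left out these counts reached 24 for vincristine minus etoposide, 23 for etoposide minus prednisone and 19 for cytarabine minus etoposide (each without the etoposide derivative of line 2696). They reached 18 for vincristine minus prednisone (without the prednisone derivative of line 2641), 13 for cytarabine minus prednisone (without either library of line 2641) and 5 for cytarabine minus vincristine (without the parental library of line 2696). None of the 9 genes was among them. By annotation the predicted gene Gm38287 covers Nrarp on the opposite strand, and the labels do not say whether counting used the strand. Shorter opposite-strand overlaps are annotated at Notch1, Notch3, Ptcra, Rbpj and Maml1.

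Ptcra (chromosome 17, 46755663 to 46763712, minus strand) encodes the pre-T-cell receptor alpha chain, which pairs with the beta chain in immature thymocytes and is a Notch target. It was at 96.6 CPM in the cytarabine derivative of line 7298, against 13.4 CPM in its parent, a ratio of 7.21 (6.15 to 8.50). In line 2883 it was at 414 CPM with prednisone, 208 CPM with methotrexate, 153 CPM with cytarabine, 56.1 CPM with etoposide and 45.8 CPM with vincristine resistance, against 278 CPM in the parent. The last 2 are ratios of 0.202 (0.187 to 0.218) and 0.165 (0.151 to 0.179). In line 2696 it was at 179 CPM with etoposide and 156 CPM with vincristine resistance, against 66.1 CPM, so both drugs went with lower Ptcra in line 2883 and with higher Ptcra in line 2696.

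In line 2869 Ptcra was at 397 CPM with vincristine and 269 CPM with cytarabine resistance, against 277 CPM in its parent, and in line 2641 at 19.5 CPM with prednisone resistance, against 30.9 CPM. Over all cultures it averaged 181 ± 133 CPM in resistant (SD, n = 11) and 133 ± 133 CPM in parental ones (SD, n = 5). The resistance difference of 0.37 ± 0.56 (log2, SE) had an adjusted p of 0.882 (limma), and without line 7298 it was -0.08. The line difference had an adjusted p of 0.0434 (limma), which exceeded 0.05 in 12 of 22 alternatives, 11 of them with 1 library left out. These libraries were the derivatives resistant to cytarabine (lines 2869 and 2883), vincristine (2696 and 2869), etoposide (2696), prednisone (2641, at an adjusted p of 0.162 in limma) and methotrexate (2883) and the parental libraries of lines 2641, 2696, 2869 and 7298.

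Hes1 (chromosome 16, 30064384 to 30067796, plus strand), a repressor of the basic helix-loop-helix family and a direct Notch target, was above the parent in 9 of 11 derivatives, in 6 of them beyond counting error. In line 2869 it was at 37.4 CPM with vincristine and 7.50 CPM with cytarabine resistance, against 32.5 CPM in its parent, the second a ratio of 0.230 (0.188 to 0.281). In line 2883 it was at 61.8 CPM with cytarabine resistance, against 27.4 CPM, a ratio of 2.26, and at 28.3 to 50.3 CPM in the other 4 derivatives. Cytarabine resistance thus went with the lowest Hes1 of all libraries in one line and with the highest of its line in another. Line 2696 held 105 and 99.9 CPM in its derivatives, against 94.0 CPM in its parent, line 7298 held 66.8 against 71.5 CPM, and line 2641 held 35.9 against 24.8 CPM. The resistance difference was 0.04 ± 0.32 (log2, SE, adjusted p = 0.984, limma). Lines differed with an adjusted p of 0.0190 (limma), which exceeded 0.05, at up to 0.0556, without any 1 of the 3 libraries of line 2696.

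**Figure D3:**
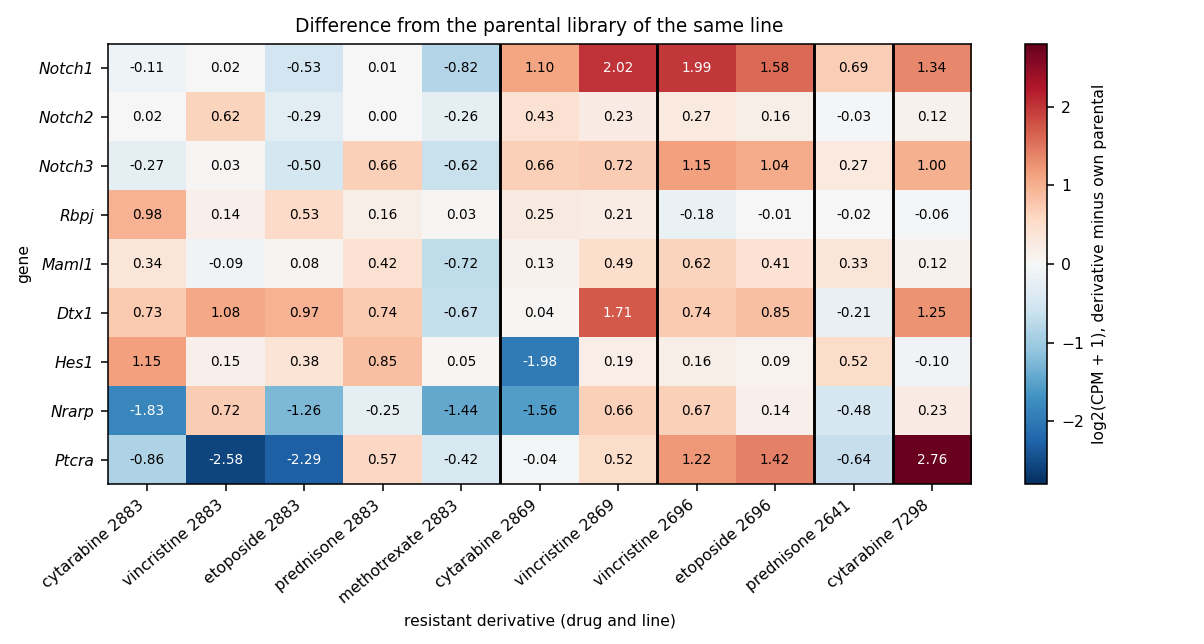
Log2(CPM + 1) of each of the 11 derivatives minus its own parental library, for the 9 genes in rows, with derivatives grouped by line and red for higher and blue for lower values in the derivative. Notch1 ranges from 0.69 to 2.02 in the 6 columns of the lines other than 2883 and from -0.82 to 0.02 in the 5 columns of line 2883, and the extremes of the plot are Ptcra, at 2.76 with cytarabine in line 7298 and -2.58 with vincristine in line 2883.

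Taken by drug, Notch1, Notch2, Notch3, Dtx1, Hes1 and Nrarp, 6 of the 9, were above the parent in 3 of 3 vincristine derivatives, where 13.5% of all genes tested were. With cytarabine resistance Notch2, Dtx1 and Maml1 were above the parent in 3 of 3 derivatives (15.1% of all genes). With etoposide resistance Dtx1, Hes1 and Maml1 were above it in 2 of 2 (24.4%), and with prednisone resistance Notch1, Notch3, Hes1 and Maml1 were above it in 2 of 2 (25.8%) and Nrarp was below it in 2 of 2 (27.0%). Several of these differences were within counting error, as were those of Notch1 (ratio 1.01, 0.992 to 1.03), Notch3 (1.02, 0.977 to 1.07) and Hes1 (1.12, 0.967 to 1.29) in the vincristine derivative of line 2883. Above the parent beyond counting error in every derivative were Notch2, Dtx1 and Nrarp with vincristine (5.53% of all genes), Dtx1 with etoposide (11.3%), Notch3, Hes1 and Maml1 with prednisone (12.8%) and 0 of the 9 genes with cytarabine (6.09%). Drugs were tested in different lines, so these counts are not a comparison of drugs.

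No gene of 13261 (0%) was called by limma for cytarabine, vincristine, etoposide or prednisone resistance at an adjusted p of 0.05. At an unadjusted p under 0.05, cytarabine had 713 genes higher and 536 lower (5.38% and 4.04%), of the 9 genes Notch1 higher (0.91 ± 0.36) and Nrarp lower. Vincristine had 688 higher and 1039 lower (5.19% and 7.84%), with Notch1 (1.39 ± 0.37, adjusted p = 0.237) and Dtx1 among those higher. Etoposide had 489 higher and 662 lower (3.69% and 4.99%), with Dtx1 (0.96 ± 0.35) among those higher, and prednisone had 561 each way (4.23% each), with Notch3 among those higher. The median log2 difference of the 9 genes was 0.36 with cytarabine, 0.35 with vincristine, 0.19 with etoposide, 0.45 with prednisone and 0.25 over all derivatives, beside 0.02, -0.04, -0.02, -0.01 and -0.01 for all genes tested. Counts of called genes moved when 1 library was left out, to 33 for etoposide without its derivative of line 2696 and 19 without that of line 2883, to 15 for prednisone without its derivative of line 2641, to 9 for vincristine without the parental library of line 2696 and to 1 for cytarabine without either library of line 7298. None of the 9 genes was among them. The estimates for Notch1 with etoposide and prednisone depended on the libraries used: they were 0.73 and 0.84 and ranged over 0.25 to 1.29 and 0.35 to 1.25 under the alternatives. The 2 prednisone derivatives differed from their own parents in Notch1 by 0.69 (line 2641) and 0.01 (line 2883), both less than the estimate, which also draws on the other derivatives of their lines.

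**Figure D4:**
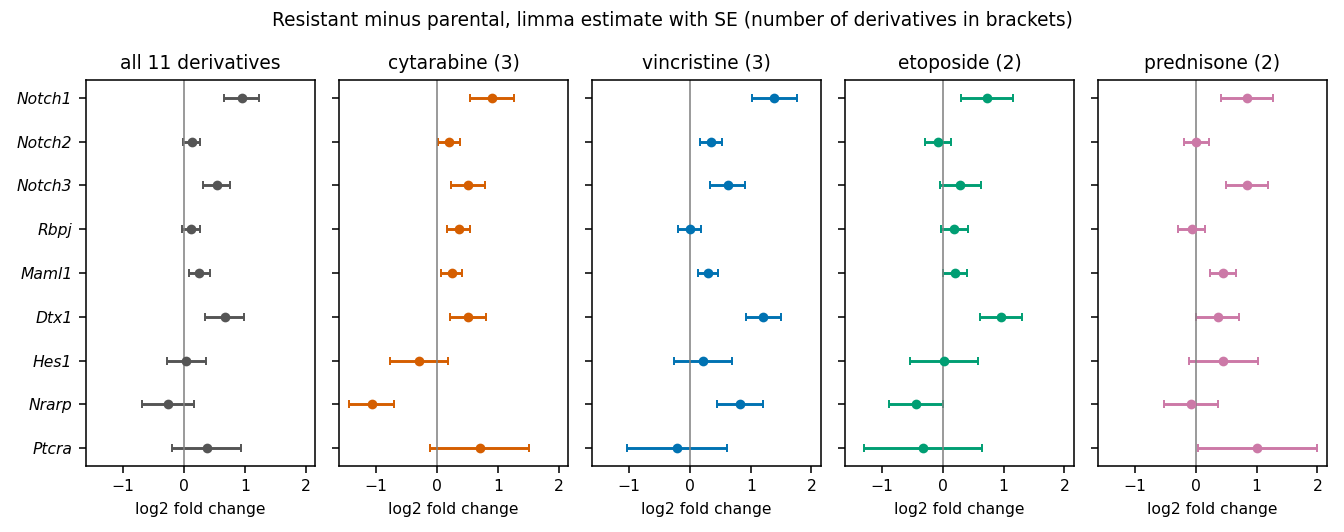
Log2 fold change of the 9 genes, resistant minus parental, with the SE of the limma fit, for all 11 derivatives and for the 4 drugs with at least 2 derivatives. Notch1 lies right of 0 in all 5 panels, at 0.73 to 1.39, whereas Nrarp lies at -1.07 with cytarabine and at 0.83 with vincristine; none of the points passed an adjusted p of 0.05.

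The 4 tested drugs did not differ for any of the 9 genes at an adjusted p of 0.05 in limma's F test, which called no gene of 13261 (0%) and had 1222 at an unadjusted p under 0.05 (9.21%), Nrarp among them (unadjusted p = 0.00855, adjusted p = 0.536). Methotrexate resistance, with 1 derivative, was not tested. A log2 difference of -1 or less was met by 755 of 13261 genes (5.69%) and, of the 9, by Nrarp. In that culture 7 of the 9 genes were below the parent beyond counting error, as were 38.7% of all genes tested, with ratios of 0.360 for Nrarp, 0.566 for Notch1, 0.599 for Maml1, 0.628 for Dtx1, 0.649 for Notch3, 0.748 for Ptcra and 0.833 for Notch2. Hes1 (1.03) and Rbpj (1.02) were at the parental level within counting error.

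Differences between lines were the only ones called among the 9 genes. Cultures of a line share their origin, so this test is on cultures and not on independent tumours. Limma's F test over the line terms called 3801 of 13261 genes (28.7%), and of the 9 genes it called 5, Dtx1, Hes1, Notch2, Nrarp and Ptcra. The count fell to 3 without the cytarabine or the vincristine derivative of line 2869 and to 2 without any 1 of the 3 libraries of line 2696 or the prednisone derivative of line 2641. Maml1 had an adjusted p of 0.0985, Notch3 of 0.133, Rbpj of 0.646 and Notch1 of 0.657 (limma), and without the methotrexate derivative of line 2883 that of Maml1 was 0.0167. All 4 targets were in the called set, and of the receptors and nuclear proteins Notch2 was.

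Around these 9 genes, 69 others of the Notch pathway were listed and 61 had a row and were tested. None of the 61 was called by limma for resistance or for any drug; at an unadjusted p under 0.05, 1 was higher and 3 were lower in resistant cultures, and the median log2 difference was 0.05, beside -0.01 for all genes. Between lines, 22 of the 61 were called, beside 28.7% of all genes. Dll1, Dll3, Dll4 and the glycosyltransferase Lfng were not analysed here, nor were Aph1c, Hes5, Ctbp2 and Aes.

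Of 2 ligands with a row, Jag2 was at 0.850 to 37.7 CPM in resistant and 0.770 to 8.08 CPM in parental cultures (1.11 ± 0.62, log2, SE, adjusted p = 0.660, limma), and Jag1 stayed at or below 8.16 CPM. The fourth receptor, Notch4, did not exceed 2.68 CPM in any library. Of 9 receptor-processing genes, nicastrin (Ncstn), a gamma-secretase subunit, was above the parent in 11 of 11 derivatives (as were 0.686% of all genes), 3 of them within counting error (0.24 ± 0.11, adjusted p = 0.591, limma), with 47.0 to 70.9 CPM in resistant and 46.4 to 65.8 CPM in parental cultures. Another subunit, Psenen, was lower in 3 of 3 cytarabine derivatives (-0.39 ± 0.19), as was the glycosyltransferase Poglut1 (-0.56 ± 0.22). Both were within counting error of the parent with cytarabine in line 7298. The protease Adam17 was lower in 2 of 2 etoposide derivatives (-0.59 ± 0.23), in line 2696 within counting error.

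Of 9 genes of receptor turnover and inhibition, the Deltex relative Dtx2 was above the parent in 10 of 11 derivatives (0.36 ± 0.18, adjusted p = 0.618, limma). It was within counting error with cytarabine in line 7298, vincristine in line 2696, and prednisone and methotrexate in line 2883. Dtx4 was higher in 2 of 2 prednisone derivatives (1.53 ± 0.45), as were 25.8% of all genes. This was not particular to prednisone: Dtx4 was higher in 9 of 11 derivatives, with etoposide by ratios of 2.83 and 2.75. With cytarabine in line 7298 it was within counting error (1.01, 0.797 to 1.27). Of 6 nuclear cofactors, the Mastermind relative Maml2 was below the parent in 10 of 11 derivatives (-0.74 ± 0.33, adjusted p = 0.589, limma). Its levels were at most 7.30 CPM in resistant and 11.2 CPM in parental cultures. In line 2869 its parent (0.00741 CPM) and derivatives (0.00588 and 0.00580 CPM) were at the floor and differed by depth alone. In the vincristine derivative of line 2883 Maml2 was within counting error of the parent (ratio 0.580, 0.325 to 1.02). Snw1 was lower in 10 of 11 derivatives (-0.17 ± 0.09), within counting error in both prednisone derivatives. Of 11 nuclear repressors, Kdm5a, a histone demethylase of the RBPJ repressor complex, was lower in 9 of 11 derivatives (-0.30 ± 0.11, adjusted p = 0.554, limma) and Cir1 in 7 of 11 (-0.34 ± 0.13). The corepressor Tle3 was higher in 8 of 11 (0.24 ± 0.12) and in 2 of 2 prednisone derivatives (0.37 ± 0.14). Within counting error were Kdm5a with etoposide and prednisone in line 2883, Cir1 with cytarabine in line 2869 and Tle3 with vincristine in line 2883. These genes were named for a small p in limma, and the shares of all genes with such counts of 11 are not given here. Spen was higher in 3 of 3 cytarabine derivatives (0.45 ± 0.13) and Tle4 in 2 of 3 (1.41 ± 0.40), and Hdac1 was lower in 2 of 2 prednisone derivatives (-0.37 ± 0.21). Over all drugs Hdac1 was above the parent in 1 of 11 derivatives. Of all genes tested, 15.1% were higher in 3 of 3 cytarabine and 27.0% lower in 2 of 2 prednisone derivatives.

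Of 19 other targets and T-lineage genes tied to Notch, Cd3e was higher in 3 of 3 vincristine (0.74 ± 0.22) and 2 of 2 etoposide derivatives (0.99 ± 0.26). Cdk6 was higher in 3 of 3 vincristine derivatives (1.17 ± 0.38), in line 2883 within counting error (ratio 1.02, 0.983 to 1.05). Lef1 was higher in 2 of 2 etoposide derivatives (0.63 ± 0.18). It was also higher in 3 of 3 vincristine derivatives (0.42 ± 0.16) and in 9 of 11 over all drugs. With cytarabine and prednisone in line 2883 it was within counting error. Of all genes tested, 13.5% were higher in 3 of 3 vincristine and 24.4% in 2 of 2 etoposide derivatives. Over all drugs Cd3e and Cdk6 were each higher in 8 of 11 derivatives. Cyclin D3 (Ccnd3) was lower in 3 of 3 vincristine derivatives (-1.01 ± 0.26, adjusted p = 0.227, limma), the interleukin 7 receptor (Il7r) in 2 of 3 (-2.58 ± 0.78), and Trib2 in 2 of 2 prednisone derivatives (-1.47 ± 0.57). Of all genes tested, 27.0% were lower in 2 of 2 prednisone derivatives, and the share lower in 3 of 3 vincristine derivatives is not given here. The genes named so far in this paragraph were picked for a small p in limma, which favours derivatives of the same sign. Myc, a direct Notch1 target in T-ALL, was at 194 to 417 CPM in resistant and 178 to 314 CPM in parental cultures (0.09 ± 0.14, adjusted p = 0.883, limma), and was above the parent in 5 of 11 derivatives.

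**Figure D5:**
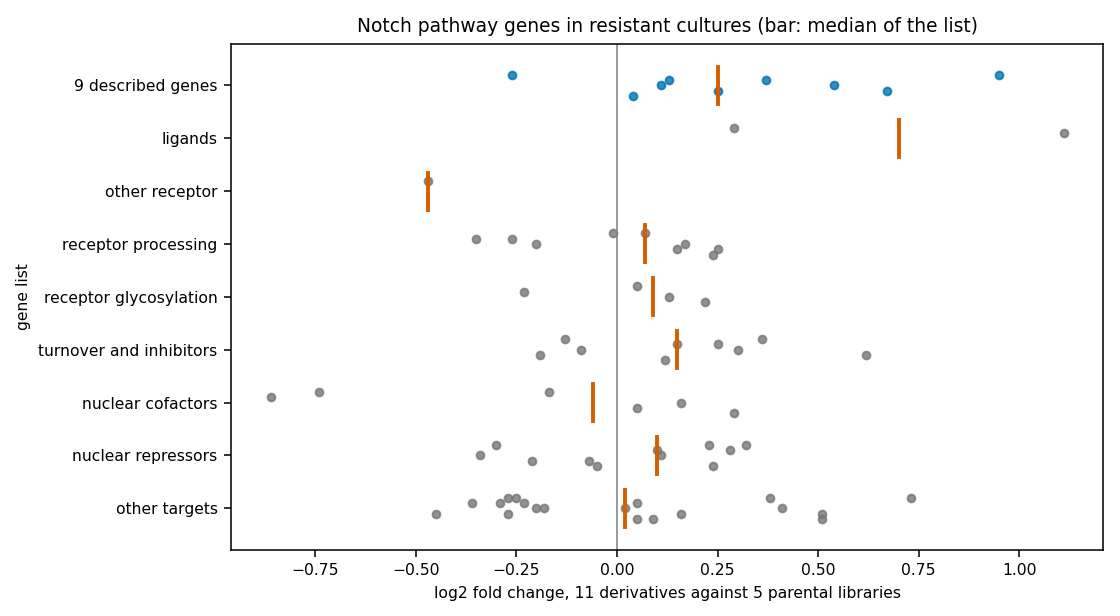
Log2 fold change over all 11 derivatives against the 5 parental libraries for the 9 described genes and for 61 other genes of the Notch pathway, 1 point per gene, with a bar at the median of each list. The 9 genes have a median of 0.25, the 19 other targets 0.02 and the 6 nuclear cofactors -0.06, and no point passed an adjusted p of 0.05.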

How the data were processed

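RNA was sequenced from 16 mouse T-ALL cultures with a stranded mRNA kit, per the labels. The authors deposited FPKM for 13474 genes in 1 table. Cutadapt, STAR and Partek are named in the submitters' processing notes, as is the mm10 build, all without versions; annotation and counting method: not given in the sources used here. For these FPKM the length is the whole gene span, introns included, in all 13474 rows, and a constant of 0.1 read per gene was added. CPM were recovered by multiplying FPKM by that length. The steps between low values gave depths of 12142124 to 18956066 reads. Only 70.5% to 75.7% of values lay within 0.05 of a whole read, so differences between groups were not tested on counts. Ratios carry 95% exact Clopper-Pearson intervals on these reads, rounded to whole numbers, for counting error only. Beyond counting error means that this interval leaves out 1.

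Differences were tested two-sided with limma 3.58.1 in R 4.3.3 (eBayes with trend) on log2(CPM + 1), for 13261 genes with at least 1 CPM in at least 2 libraries, with Benjamini-Hochberg adjustment at 0.05. A pseudocount of 1 CPM understates the fold change of low genes. The models had terms for line and for resistance (10 residual degrees of freedom) or drug (6). Line pairs a derivative with its parent, per the labels; 11 of 11 derivatives correlated best with their own parent (r of 0.91 to 0.98, across genes). An exact sign-flip permutation test used the 5 line means. Whether a p-value covers more than these single cultures is not known, since no culture was sequenced again.

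Gene coordinates and exon lengths are from GENCODE vM21 (mm10) and promoter windows from RefSeq (GRCm38.p6). All 9 genes are named. Of 69 other pathway genes, up to 4 per direction with the smallest p for resistance and up to 2 per direction for each drug are named, and others were chosen after their values were seen. Genes like Notch1 are the 5 with the highest Pearson r over 16 libraries, predicted genes left out. The genes described and all lists were chosen with earlier results of these data known. Alternatives were log2(FPKM + 1), a pseudocount of 0.1 CPM, no filter, quantile normalization, scaling by median of ratios, no replicate block, the 4 Mcm2cre/cre lines, the libraries of a drug with their parents, and each library left out. Leaving out line 2883 and the term for it were added after the data were seen.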

Additional observations from a re-analysis of the deposited data

Results flagged for a closer look

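Among the 5 parental libraries, Maml1 was lowest in line 2869, at 28.1 CPM against 43.8 to 51.5 CPM in the other 4. Its gap to the next library was 0.731 of the range of the group on the log2 scale, above the critical 0.71 of Dixon's test for 5 libraries, which chance exceeds in about 1 of 20 groups; it was the only such gap among both ends of the 9 groups looked at, 1 for each gene. The 2 derivatives of line 2869, at 30.9 and 39.7 CPM, were also below the parental libraries of the other lines.

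Rbpj lay on opposite sides of the parent in pairs of lines, by small amounts and without a test of the difference. It was above the parent in both derivatives of line 2869 (0.21 and 0.25 on the log2 scale) and below it in both of line 2696 (-0.18 and -0.01), a difference between line means of 0.33. It was also above the parent in all 5 derivatives of line 2883 (0.03 to 0.98), a difference of 0.46 from line 2696. Of these, the etoposide derivative of line 2696 (ratio 0.994, 0.932 to 1.06) and the methotrexate derivative of line 2883 (1.02, 0.941 to 1.12) were within counting error of the parent.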

How the results depend on the processing

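Each library stands for 1 culture and 0 of the 9 genes were called for resistance or any drug under each alternative run, so these alternatives bear mainly on signs and on the calls between lines. For resistance and single drugs, signs changed for effects below or near their SE, such as Dtx1 (0.36 ± 0.35) and Ptcra (1.01 ± 0.98) with prednisone. Without the replicate block the sign also changed for Nrarp with cytarabine (-1.07 ± 0.37, log2, SE). Some pairwise drug differences larger than their SE turned too. One was Nrarp in cytarabine minus prednisone (-0.99 ± 0.52), which reached 0.63. Where no cause is given the cause was not tested. Counts of genes called moved between lines from 3801 of 13261 to 2190 of 9309 with log2(FPKM + 1), which tests fewer genes, and the 9 genes called between lines from 5 to 3. On that scale 7 of the 9 were tested, since Notch2 and Rbpj did not pass its filter, and of the genes called Ptcra (adjusted p = 0.0523, limma) lost its call. That scale called 2 genes for prednisone, the fit without the replicate block called 4 for vincristine, and the 4 Mcm2cre/cre lines gave 1 each for cytarabine, for cytarabine minus vincristine and for the difference among drugs. For Notch1 and resistance the fit without the replicate block gave 0.96 (adjusted p = 0.697, limma), against 0.95 with it.

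Signs that turned without the replicate block were those of Dtx1 and prednisone (-0.38), Hes1 and prednisone (-0.02), Hes1 and resistance (-0.04), Notch2 and prednisone (-0.27), Nrarp and cytarabine (0.13), Nrarp and resistance (0.04), Ptcra and etoposide (0.43), Ptcra and vincristine (0.93) and Rbpj and vincristine (0.05). In the 4 Mcm2cre/cre lines they were Hes1 and etoposide (-0.01), Ptcra and cytarabine (-0.18), Ptcra and resistance (-0.08), Ptcra over line means (-0.05) and Rbpj and vincristine (0.06). With only the libraries of the drug and their parents they were Notch2 and prednisone (-0.01), Ptcra and prednisone (-0.03), Rbpj and prednisone (0.07) and Rbpj and vincristine (0.06). Quantile normalization turned Hes1 and etoposide (-0.00) and Notch2 and prednisone (-0.01), median-of-ratios scaling turned Rbpj and vincristine (0.05), and leaving out line 2883 turned Hes1 and resistance (-0.13) and Hes1 over line means (-0.09).

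Leaving out 1 library at a time, estimates that changed sign ranged over -0.21 to 0.78 (Dtx1, prednisone), -1.14 to 0.56 (Hes1, cytarabine), -0.20 to 0.28 (Hes1, etoposide), -0.18 to 0.26 (Hes1, line means), -0.13 to 0.29 (Hes1, resistance), -0.22 to 0.57 (Hes1, vincristine), -0.32 to 0.21 (Notch2, etoposide), -0.03 to 0.08 (Notch2, prednisone), -0.13 to 0.79 (Notch3, etoposide), -1.03 to 0.24 (Nrarp, etoposide), -0.44 to 0.00 (Nrarp, line means), -0.48 to 0.21 (Nrarp, prednisone), -0.18 to 1.27 (Ptcra, cytarabine), -1.25 to 0.73 (Ptcra, etoposide), -0.05 to 0.92 (Ptcra, line means), -0.64 to 2.23 (Ptcra, prednisone), -0.08 to 0.90 (Ptcra, resistance), -0.90 to 0.59 (Ptcra, vincristine), -0.20 to 0.02 (Rbpj, prednisone) and -0.15 to 0.09 (Rbpj, vincristine). Where this left a drug with 1 derivative, that culture was assumed to vary like the others. Genes called ranged over 0 to 1 for cytarabine, 0 to 9 for vincristine, 0 to 33 for etoposide, 0 to 15 for prednisone, 0 to 9 for the difference among drugs and 0 to 5 for cytarabine minus vincristine, and the 9 genes called between lines over 2 to 5. Notch1 and resistance stayed between 0.73 and 1.39.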

Other observations

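Some Notch targets outside the 9 genes were high in single lines or cultures; those given here were chosen after their values were seen. Il2ra, the interleukin 2 receptor alpha chain of immature thymocytes and activated T cells, was at 2381 CPM in the cytarabine and 2131 CPM in the vincristine derivative of line 2883, against 131 CPM in their parent, ratios of 18.2 (95% exact Clopper-Pearson interval 17.3 to 19.2) and 16.3 (15.5 to 17.2). It was at most 191 CPM in the other 9 derivatives and at most 131 CPM in the 5 parental libraries. In the same derivatives Notch1 was at 1212 and 1322 CPM, against 1305 CPM in the parent.

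Heyl, a repressor of the Hes family, was at 386 CPM with vincristine and 22.1 CPM with cytarabine resistance in line 2869, against 93.6 CPM in its parent, and at 296 CPM with cytarabine resistance in line 7298, against 90.1 CPM. Its ratios in line 2869 were 4.13 (3.89 to 4.39) and 0.236 (0.210 to 0.266), beside 1.58 and 0.337 for Nrarp in the same derivatives. Heyl did not exceed 12.9 CPM in the other 11 libraries. Its relative Hey1 exceeded 10 CPM only in line 2696, at 138 CPM with etoposide resistance, against 53.4 CPM in the parent, and at 0.609 CPM with vincristine resistance it was near the floor.

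The ubiquitin ligase Nedd4 was at 8.26 and 4.37 CPM in the vincristine and cytarabine derivatives of line 2869, against 3.56 CPM in their parent, and at 443 to 866 CPM in the 13 libraries of the other lines. The acetyltransferase Kat2a was at 2.27 CPM in the prednisone derivative of line 2641, against 4.52 CPM in its parent, and at 64.6 to 165 CPM in the 14 libraries of the other lines. No test was made of these line patterns beyond the F test over lines.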
